A study of Mus musculus with 446 samples.

Results

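The 7 genes described here encode the enzymes of the pentose phosphate pathway: G6pdx, Pgls and Pgd of its oxidative branch, and Rpia, Rpe, Tkt and Taldo1 of its non-oxidative branch. They were chosen by name, and all 7 were among the 47643 genes measured in liver and in skeletal muscle. None of the 7 was among the 2728 genes read for adipose tissue, so the enzymes in adipose tissue were not analysed here. The mice were male Diversity Outbred animals, an outbred stock in which every mouse is genetically different, received at 6 weeks of age. All began on a control diet with 10% of its energy as fat. At study start the mice were randomized, and 1 group received a diet with 60% of its energy as fat for 14 weeks while the other stayed on the control diet. The comparisons below use 74 control and 74 high-fat mice in each tissue, with 1 library of total RNA per mouse and tissue.

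The pathway branches off glycolysis at glucose 6-phosphate. Its oxidative branch yields NADPH, the reducing power used to build fatty acids and sterols and to keep glutathione reduced, and its non-oxidative branch makes ribose 5-phosphate for nucleotides or returns carbon to glycolysis. In liver and adipose tissue the oxidative enzymes are known to accompany fatty acid synthesis, while resting skeletal muscle is known for little NADPH production by this route.

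Levels are given as scaled TPM, that is, TPM (a transcript abundance corrected for gene length and library total) divided by a factor for each library that lines up its protein-coding genes with those of the other libraries of that tissue. The share of TPM that fell on nuclear protein-coding genes ranged from 0.410% to 74.9% over liver libraries and from 2.54% to 76.04% over muscle libraries. The scale factor was under 1/3 of the tissue's median in 14 control and 12 high-fat livers, and in 2 control and 9 high-fat muscles. Mouse 80 was left out by rule: its library labelled liver held 17913 scaled TPM of the muscle actin Acta1 and 139.1 of albumin (Alb), while its library labelled muscle held 46461 of Alb and 85.6 of Acta1. In 7 of the other mice, 2 control and 5 high-fat, liver and muscle did not match each other at 150 genes. These genes were chosen because their levels correlated most between liver and muscle over these same mice, and no genotype was read. Of the 7, only mouse 45 had a liver library whose scale factor was not low. In the others a mix-up of animals therefore cannot be told apart from a weak library. The muscle library of mouse 45, with a scale factor of 0.590, was not low either. Its liver and muscle correlated at -0.08 over these genes, the lowest of all mice compared, and the cause was not tested. Among muscle libraries the sum of 12 adipocyte markers ran from 487.4 to 7854 scaled TPM in control mice and from 535.1 to 5254 in high-fat mice. The marker sums of both diets spanned a similar low end and the highest was a control muscle. The sum includes Slc2a4 and Lpl, whose medians over control muscles were 246.6 and 225.1 scaled TPM, so they weigh heavily in its low end. Replicates here are different mice. All 7 members passed the filter on low values in both tissues.

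In liver, transcripts of 4 of the 7 enzymes were lower on the high-fat diet and none was higher: G6pdx, Pgd, Rpia and Tkt. By comparison, 5.33% of all 12374 genes tested in liver were called lower and 4.57% higher (9.9% in either direction), at an adjusted p under 0.05 from limma with Benjamini-Hochberg adjustment over all genes. The median change of the 7 enzymes was -0.29 on the log2(scaled TPM + 1) scale, against -0.01 over all genes tested. Both branches held enzymes that fell and enzymes that did not pass the test. On TPM as deposited, with no scale factor, none of the 4 was called, and their changes lay between -0.48 and -0.32. In bulk tissue, fewer cells of a type and less RNA per cell cannot be told apart.

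G6pdx, glucose-6-phosphate dehydrogenase, catalyses the first and committed step and reduces NADP to NADPH. Its level in control livers ran from 0 to 17.7 scaled TPM with a median of 4.46, and in high-fat livers from 0 to 14.1 with a median of 3.37. The groups overlapped over nearly their whole range, but 55 of 74 high-fat livers were not above the control median. The difference, high-fat minus control, was -0.38 ± 0.11 (log2, SE; adjusted p = 0.0127). G6pdx was listed at 0 in 1 control and 3 high-fat livers, and over the livers whose scale factor was not low its change was -0.26. The gene overlaps Ikbkg on the opposite strand over 19712 bases, and Ikbkg had a median of 26.5 deposited TPM in liver. Whether counting used strand is not stated in the labels.

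Pgls, 6-phosphogluconolactonase, hydrolyses the lactone that G6pdx makes. It ran from 10.7 to 41.1 scaled TPM with a median of 31.01 in control livers, and from 16.0 to 46.9 with a median of 31.4 in high-fat livers. Its change was 0.04 ± 0.05 (SE; adjusted p = 0.753), with a 95% interval from -0.06 to 0.14. Pgls shares 3445 bases of its locus with Fam129c on the same strand, whose median was 0.720 deposited TPM in liver. Pgls stood at nearly equal medians on both diets, between a first and a last oxidative enzyme that were lower.

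Pgd, 6-phosphogluconate dehydrogenase, makes the second NADPH of the branch and releases ribulose 5-phosphate. In control livers it ran from 0 to 20.0 scaled TPM with a median of 10.4, and in high-fat livers from 3.62 to 29.8 with a median of 6.58. High-fat livers lay mostly in the lower part of the control range: 64 of 74 were not above the control median, although the 2 highest values of all, 29.8 and 22.8, were high-fat livers. The value of 29.8 came from mouse 77, whose liver library had a scale factor of 0.010. The change was -0.37 ± 0.09 (SE; adjusted p = 0.00153), and -0.49 over the livers whose scale factor was not low.

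Rpia, ribose-5-phosphate isomerase, turns ribulose 5-phosphate into ribose 5-phosphate, the sugar of nucleotides. Control livers ran from 0 to 8.19 scaled TPM with a median of 4.41, and high-fat livers from 0 to 15.5 with a median of 3.32. A single high-fat liver, at 15.5, stood above the whole control group. Its library had a low scale factor, 0.107, and its mouse was among those whose liver and muscle did not match. The next highest high-fat value was 6.57, and 60 of 74 high-fat livers were not above the control median. The change was -0.29 ± 0.08 (SE; adjusted p = 0.0114). With a pseudocount of 0.1 in place of 1 it was -0.37 with an adjusted p of 0.0769.

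Rpe, the epimerase that competes with Rpia for ribulose 5-phosphate, ran from 6.87 to 25.7 scaled TPM around a median of 18.6 in control livers and from 12.2 to 28.6 around 19.2 in high-fat livers. Its change of 0.08 ± 0.04 (SE; adjusted p = 0.290) did not pass the test. It overlaps Kansl1l on the opposite strand over 558 bases, and Kansl1l had a median of 6.43 deposited TPM in liver.

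Tkt, transketolase, moves 2-carbon units between sugar phosphates and so links the pathway to glycolysis. In control livers it ran from 18.4 to 63.2 scaled TPM with a median of 36.02, and in high-fat livers from 15.6 to 65.4 with a median of 27.97. The ranges were nearly the same, while 65 of 74 high-fat livers were not above the control median. Its change of -0.35 ± 0.05 (SE; adjusted p = 1.01e-07) had the smallest p of the 7 enzymes.

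Taldo1, transaldolase, moves 3-carbon units in the same branch and was the most abundant member. It ran from 30.1 to 84.3 scaled TPM with a median of 62.7 in control livers and from 34.6 to 84.98 with a median of 65.3 in high-fat livers. The change was 0.04 ± 0.04 (SE; adjusted p = 0.590; 95% interval from -0.03 to 0.12). The 2 enzymes that exchange carbon with glycolysis differed: the within-mouse log ratio of Tkt to Taldo1 was lower on the high-fat diet by 0.39 ± 0.06 (adjusted p = 7e-05, permutation test over 74 and 74 mice, 2-sided). This ratio was compared after the member results were seen.

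Ratios of 1 member to another within a library were compared as well. The scale factor enters them through the pseudocount, which weighs most for low genes such as G6pdx. Of 42 ratios compared between diets (21 pairs in each of 2 tissues, chosen after the member results were seen), 18 passed an adjusted p under 0.05. In liver, all 12 ratios of an enzyme that fell to one that did not were different between diets, and none of the 6 ratios among the 4 that fell, or of the 3 among the others, passed. On TPM as deposited the ratios of G6pdx to Pgls (-0.42 to -0.27, adjusted p = 0.0848) and to Taldo1 (-0.42 to -0.27, adjusted p = 0.101) did not pass. Over livers whose scale factor was not low, the ratio of G6pdx to Pgd, both of which fell, passed at 0.23 (adjusted p = 0.0446, permutation test). Because the pairs were sorted by the diet result of their members, this split describes the members and is no independent test.

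The start regions of the 4 enzymes that fell in liver are shown because all 4 were called lower by diet; Taldo1, which did not pass the test, is shown for comparison. The sequences are from RefSeq (GRCm38.p6), 5′ to 3′ on the gene's own strand, and positions are counted from the RefSeq start, with -1 the base before it. All 7 members matched a RefSeq promoter window of 250 bases before to 50 bases after the start. For Pgd, Rpia and Tkt the stretch outside every annotated exon is given (that of Tkt lies inside its GENCODE gene, which begins upstream of the RefSeq start), with an adjacent pair of identical copies in capitals for Pgd. For G6pdx and for the Pgd box only the bases around a motif are given, with the motif in capitals, as in Taldo1. The G6pdx stretch and the Pgd box also lie inside their GENCODE genes, which begin upstream of the RefSeq starts.
G6pdx (chrX:74428919-74428947, minus strand): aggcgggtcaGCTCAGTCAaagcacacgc
Pgd (chr4:149166772-149166955, minus strand): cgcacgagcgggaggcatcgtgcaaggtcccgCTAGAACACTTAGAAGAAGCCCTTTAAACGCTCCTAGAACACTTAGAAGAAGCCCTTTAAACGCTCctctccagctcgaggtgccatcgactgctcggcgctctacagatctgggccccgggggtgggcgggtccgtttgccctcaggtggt
Pgd box (chr4:149166735-149166763, minus strand): cgccgcagagacCCAATagcgtggggcat
Rpia (chr6:70792233-70792425, minus strand): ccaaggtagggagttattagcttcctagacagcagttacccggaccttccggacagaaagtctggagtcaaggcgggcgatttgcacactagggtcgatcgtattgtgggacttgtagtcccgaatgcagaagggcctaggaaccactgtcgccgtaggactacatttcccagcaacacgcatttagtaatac
Tkt (chr14:30548881-30549001, plus strand): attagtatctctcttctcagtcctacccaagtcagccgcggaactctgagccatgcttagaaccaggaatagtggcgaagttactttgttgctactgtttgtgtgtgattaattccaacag
Taldo1 (chr7:141391910-141392159, plus strand): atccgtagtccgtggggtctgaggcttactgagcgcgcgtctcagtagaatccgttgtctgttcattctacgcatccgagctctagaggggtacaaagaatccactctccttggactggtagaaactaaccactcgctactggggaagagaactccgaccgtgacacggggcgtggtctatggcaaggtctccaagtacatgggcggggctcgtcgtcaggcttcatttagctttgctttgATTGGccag

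Each window was searched on both strands for 4 motifs: TGACNNNGC, the core of the antioxidant response element; CACGTG, an E-box; the sterol response element; and CCAAT, the NF-Y box. The antioxidant core was found in the window of G6pdx alone among the 7 windows at the main starts, at -57 to -49 (on the opposite strand, read as GCTCAGTCA), and it was also found at 3 to 11 of a second Pgd window. It is present in 12.4% of all 32851 windows of this length. CCAAT was found at -46 to -42 and, on the opposite strand, at -9 to -5 in Pgd, at -9 to -5 in Taldo1 (opposite strand), and downstream of the start at 9 to 13 in Rpe; 37.4% of all windows hold it. The letters of the E-box (7.15% of windows) and of the sterol element (0.0913%) were in none of the 7. Pgd carries 2 adjacent identical copies of a 33-base stretch at -218 to -186 and -185 to -153, and 0.490% of windows hold a non-overlapping exact repeat of that length. The 4 enzymes that fell shared none of these motifs as a group.

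Across control livers Pgd and Tkt transcripts rose and fell together from mouse to mouse, with Pearson r = 0.49 (adjusted p = 0.00016) and Spearman rho = 0.44 (adjusted p = 0.000354) over 74 mice, by permutation tests. In high-fat livers r was 0.70 (adjusted p = 4.2e-05) and rho 0.59 (adjusted p = 5.6e-05). Leaving out the 2 mice farthest from the median on the first gene gave r = 0.43 in control and 0.66 in high-fat livers. The 2 genes come from the same library and share its scale factor. Of 84 relations between 2 members (21 pairs in 2 tissues and 2 diets), 33 passed an adjusted p under 0.05. The share among pairs of all genes was not computed. In liver these were 9 of 21 in control mice, 8 positive and 1 negative, and 3 of 21 in high-fat mice, all positive. G6pdx, although it fell with Pgd on the high-fat diet, was not correlated with it in either diet (r = -0.04 in both). Without the 2 farthest mice the counts were 3 in control and 6 in high-fat livers, and over livers whose scale factor was not low they were 6 and 4. Which diet held more correlated pairs therefore changed with the libraries used. The pair of Pgls and Rpia in control livers went from r = 0.42 to -0.0042 without the 2 farthest mice, whereas Tkt and Taldo1 went from 0.31 to 0.26 (adjusted p = 0.0733) and gave 0.41 over livers whose scale factor was not low.

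**Figure D1:**
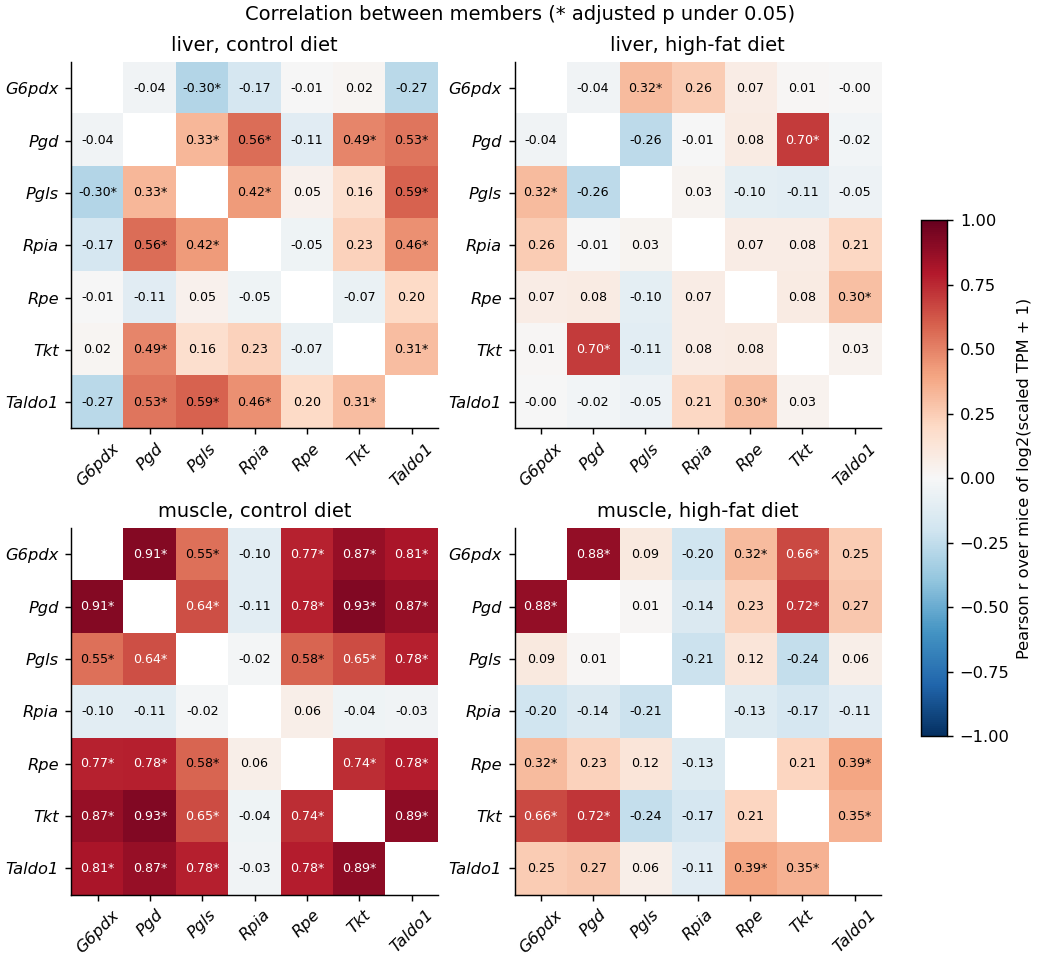
Pearson r between members over 74 mice in each tissue and diet, with a star where the adjusted permutation p is under 0.05. Rpia stands apart in muscle, where none of its pairs carries a star, and in high-fat livers the pair of Pgd and Tkt (r = 0.70) is the strongest.

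Pgd and Tkt were correlated across livers with Fasn, the fatty acid synthase that consumes NADPH, in both diets, and Rpia in control livers. In control mice r with Fasn was 0.59 for Pgd (adjusted p = 3.111e-05; rho 0.70, adjusted p = 3.5e-05) and 0.63 for Tkt (adjusted p = 3.111e-05; rho 0.56, adjusted p = 3.5e-05), by permutation tests over 74 mice. In high-fat mice r was 0.60 for Pgd and 0.62 for Tkt at the same adjusted p, which is the smallest that the permutations allow here. Without the 2 mice farthest from the median of Fasn these 4 values stayed between 0.53 and 0.57. Rpia gave r = 0.33 with Fasn in control livers (adjusted p = 0.00982; rho 0.40, adjusted p = 0.00192; permutation tests) and 0.19 in high-fat livers (adjusted p = 0.165). Taldo1 had r = 0.25 and 0.20 with Fasn in control and high-fat livers (adjusted p = 0.0661 and 0.140). When livers with a low scale factor were left out, Taldo1 passed in both diets, with r = 0.35 (adjusted p = 0.0128) and 0.37 (adjusted p = 0.00759). G6pdx gave 0.21 and -0.09 (adjusted p = 0.129 and 0.568). Me1, the cytosolic malic enzyme that makes NADPH outside the pathway, gave r = 0.56 and 0.39 with Tkt and 0.42 and 0.43 with Pgd, all past the threshold. Taldo1 passed with Me1 in high-fat livers (r = 0.30, adjusted p = 0.0222, permutation test), but not when livers with a low scale factor were left out (r = 0.20, adjusted p = 0.184). Over both tissues, diets and genes, 26 of 56 such relations passed. In liver these were 5 of 14 in each diet, all positive. In muscle they were 12 of 14 in control mice, all positive, and 4 of 14 in high-fat mice, 3 positive and 1 negative. The share of all genes correlated with Fasn or Me1 was not computed.

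**Figure D2:**
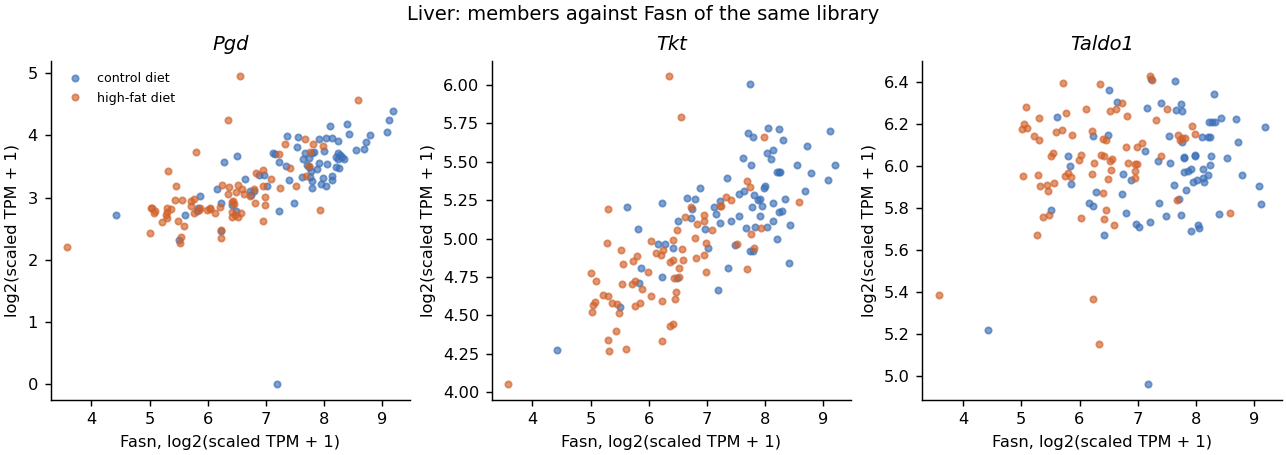
Liver libraries: log2(scaled TPM + 1) of Pgd, Tkt and Taldo1 on the vertical axes against Fasn of the same library on the horizontal axes, blue control and orange high-fat. Pgd and Tkt climb with Fasn within each diet (r from 0.59 to 0.63), while Taldo1 gives r = 0.25 and 0.20, or 0.35 and 0.37 over the livers whose scale factor was not low.

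The genes whose level was most like each member over the 60 control and 62 high-fat livers whose scale factor was not low are given as a description, with the diet means removed and over 6783 genes. For Pgd they were Acly (r = 0.78), the enzyme that makes cytosolic acetyl-CoA from citrate, Fasn (0.72) and Acss2 (0.72). For Tkt they were Acly (0.73), Fasn (0.72) and the elongase Elovl6 (0.70). For Rpia they were Slc25a44 (0.39), Aacs (0.39) and Elovl6 (0.37), at much weaker likeness. For G6pdx the closest was Myo1c (0.41), for Pgls Lsm4 (0.53), for Rpe Blmh (0.49) and for Taldo1 Sec13 (0.55), none of which is a lipid-synthesis enzyme.

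The lists of neighbouring metabolism placed these changes among others in the same livers. Of 13 tested lipid-synthesis genes, 6 were lower and none higher on the high-fat diet. They were the stearoyl-CoA desaturase Scd1 by -4.94 ± 0.27, Fasn by -1.21 ± 0.15, Elovl6 by -1.11 ± 0.14 and Elovl5 by -0.65 ± 0.10 (log2 change, SE), with Fads1 and Tecr. The list holds enzymes that use NADPH, such as Fasn, and others that do not take it directly, such as the elongases. The list's median change was -0.28. Of 10 tested genes for other NADPH sources, 3 were lower: Me1 by -1.46 ± 0.17, Aldh1l1 by -0.23 ± 0.05 and Idh1 by -0.15 ± 0.04. Among genes that supply or use glucose 6-phosphate, 2 of 11 were lower (Gpi1 by -0.32 ± 0.08 and Pfkm by -0.31 ± 0.10) and none was higher. Of 10 genes listed for redox reactions linked to NADPH, not all of them in antioxidant defence, Por alone changed, and it was higher by 0.50 ± 0.15. Of 8 genes for regulators of the pathway's transcription or flux, Mlxipl (-0.39 ± 0.05) and Srebf1 (-0.37 ± 0.10), which encode factors that drive glucose- and insulin-dependent lipogenic genes, were lower, and Ppara (0.23 ± 0.07) and Tigar (0.23 ± 0.07) were higher. None of the 8 tested paralogs and neighbouring enzymes of the pathway changed. The list medians stood between -0.28 and 0.07, against -0.01 over all genes.

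Markers of other cells were examined in the same livers. Of 13 tested macrophage markers, 3 were lower on the high-fat diet, and their sum ran from 82.8 to 512.6 scaled TPM in control and from 80.6 to 341.7 in high-fat livers. Of 10 hepatocyte markers, 5 were lower, among them Alb by -0.20 ± 0.05, and 2 were higher. None of the neutrophil markers, a cell type known for high pathway activity, was high enough to test, and 7 of 12 had a median of 0. Of 12 adipocyte markers 5 could be tested in liver, of which Pparg was higher (0.38 ± 0.11, adjusted p = 0.00861) and Lpl lower (-0.56 ± 0.13, adjusted p = 0.000637). The other adipocyte genes Adipoq, Lep, Plin1, Cfd and Retn had medians of 0 in both groups of livers, and the marker sum ran from 7.202 to 63.98 scaled TPM in control and from 0 to 98.6 in high-fat livers. The part of the macrophage, hepatocyte and adipocyte marker differences in the enzyme results was not tested.

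In muscle, Tkt alone of the 7 enzymes was lower on the high-fat diet, against 0.584% of 13517 genes called lower and 1.03% called higher, or 1.61% in either direction (limma, adjusted p under 0.05). Control muscles ran from 6.46 to 613.3 scaled TPM with a median of 16.7, and high-fat muscles from 6.87 to 42.95 with a median of 13.1. The low ends coincided, and a tail of control muscles stood above the whole high-fat range. The lower and upper quartiles were 11.6 and 30.5 in control and 10.4 and 18.1 in high-fat muscle, so the difference was not confined to the tail. The change was -0.61 ± 0.17 (log2, SE; adjusted p = 0.0278), and 52 of 74 high-fat muscles were not above the control median. The group means, 44.8 ± 100.6 in control and 15.3 ± 7.07 in high-fat muscle (SD, n = 74 each), differed far more than the medians.

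The tail moved with adipocyte markers. The highest muscle Tkt values, 613.3, 586.0, 223.3, 208.6 and 145.03 scaled TPM, were all in control mice, in mice 21, 15, 17, 6 and 47. These libraries held 255.5, 303.6, 301.3, 372.0 and 592.4 of the adipocyte hormone gene Adipoq, against a median of 51.5 over control muscles. They also held 356.8, 488.2, 104.6, 455.1 and 122.3 of Ucp1, the uncoupling protein of brown and beige adipocytes, a gene singled out after its values were seen and whose median over control muscles was 0.677. High Ucp1 did not mark high Tkt throughout: the next 5 control muscles by Tkt, at 54.3 to 82.1, held between 0.798 and 38.7 of Ucp1, and the highest high-fat value of Ucp1 was 276.9, while no high-fat muscle exceeded 42.95 of Tkt. In the muscle of mouse 21 the other members were high as well: Taldo1 at 288.9, Pgd at 98.2 and G6pdx at 52.2, while Rpia at 13.6 was within the usual range. No adipocyte marker of the 12 was itself called different between diets. Lep (1.03), Cfd (-0.91) and Slc2a4 (-0.16) came nearest, each with an adjusted p of 0.06 by limma. Leaving out the 37 muscle libraries with the highest marker sums (17 control and 20 high-fat, an alternative chosen after seeing the data) gave Tkt a change of -0.31 with an adjusted p of 0.126. With the marker sum as a covariate it was -0.61 with an adjusted p of 5.48e-06. On TPM as deposited, where the median change of all genes was -0.16, muscle Tkt was -0.81 with an adjusted p of 0.0918.

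The other 6 members did not pass the test in muscle. G6pdx ran from 1.68 to 52.2 scaled TPM with a median of 5.83 in control and from 1.78 to 45.96 with a median of 6.94 in high-fat muscle, a change of 0.05 ± 0.14 (SE; adjusted p = 0.934). Pgd ran from 4.75 to 98.2 with a median of 8.26 and from 5.02 to 26.2 with a median of 9.63, a change of -0.05 ± 0.11 (adjusted p = 0.89997). In both of these NADPH-making enzymes the high-fat median was the higher one, while the highest library was a control muscle. Taldo1 ran from 51.9 to 288.9 with a median of 76.5 and from 51.2 to 114.7 with a median of 76.7 (change -0.10 ± 0.06, adjusted p = 0.450). Rpia ran from 10.2 to 23.4 with a median of 15.4 and from 10.9 to 23.9 with a median of 15.0 (change -0.04 ± 0.04, adjusted p = 0.788). Pgls had medians of 20.3 and 20.4 and changed by -0.07 ± 0.07 (adjusted p = 0.753), and Rpe had medians of 12.1 and 12.0 and changed by -0.13 ± 0.06 (adjusted p = 0.311). All 6 ratios of Tkt to another member were lower on the high-fat diet within muscle libraries, and none of the 15 ratios without Tkt passed. Since Tkt was the only member called in muscle, this split restates the member results and is no independent test.

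**Figure D3:**
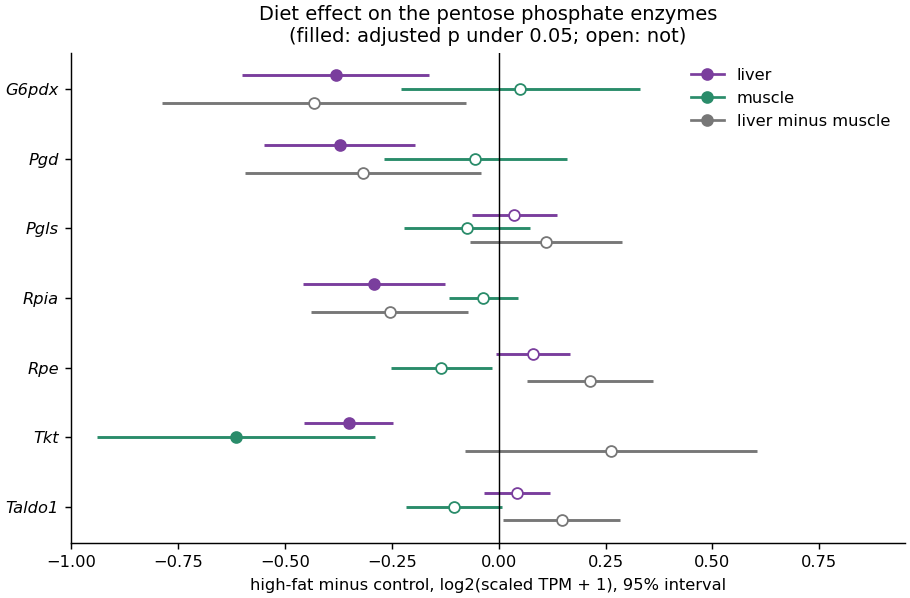
High-fat minus control change on the log2(scaled TPM + 1) scale with its 95% interval for each gene in liver (purple), in muscle (green) and for the difference of the 2 (grey); filled points have an adjusted p under 0.05. The 4 filled liver points lie between -0.38 and -0.29, the only filled muscle point is Tkt at -0.61, and no grey point is filled.

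Whether the diet effect differed between the tissues was tested as an interaction, liver minus muscle. None of the 7 members was called by limma (background 3.26% of 10965 genes, 1.33% higher and 1.92% lower), while 5 of 7 had an unadjusted p under 0.05. The share of all genes under that unadjusted threshold was not computed, so the 5 cannot be set against the background. The largest of the differences was G6pdx at -0.43 ± 0.18 (SE; adjusted p = 0.197), followed by Pgd at -0.32 ± 0.14 (adjusted p = 0.236) and Tkt at 0.26 ± 0.17 (adjusted p = 0.507). Rpe at 0.21 ± 0.07 (adjusted p = 0.0918) and Rpia at -0.26 ± 0.09 (adjusted p = 0.118) had the smallest p. Thus the enzymes that were called in liver and not in muscle were not shown to differ between the tissues. Rpia passed when libraries with a low scale factor were left out (-0.33, adjusted p = 0.000401) and without the 7 unmatched mice (-0.31, adjusted p = 0.0221), and Pgd passed without the muscle libraries rich in adipocyte markers (-0.45, adjusted p = 0.00813).

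The enzymes' proportions differed between the tissues. On the control diet 6 of 7 members differed between liver and muscle, against a background of 88% of genes (24.6% higher and 63.5% lower in liver), so this count is near that of all genes. Rpia was far lower in liver, by -1.69 ± 0.07 (log2, SE), with medians of 4.41 in liver and 15.4 in muscle. Tkt (0.68 ± 0.12), Pgls (0.54 ± 0.06) and Rpe (0.43 ± 0.05) were higher in liver, and G6pdx (-0.52 ± 0.13) and Taldo1 (-0.38 ± 0.05) were lower. Pgd did not differ beyond its error (-0.04 ± 0.10, adjusted p = 0.696). Without the muscle libraries rich in adipocyte markers, G6pdx fell short of the threshold at -0.13 (adjusted p = 0.237) and Pgd was higher in liver by 0.29 (adjusted p = 0.000651). The tables of the 2 tissues were scaled separately, so a level set across them also carries the scaling.

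Within a tissue the order of the members by level was stable at its top. In control livers Taldo1 made up a median of 37.2% of the summed TPM of the 7, followed by Tkt at 21.5%, Pgls at 17.8%, Rpe at 10.7%, Pgd at 5.78%, Rpia at 2.66% and G6pdx at 2.64%. Taldo1 stood above Tkt in 72 of 74 control livers, whereas G6pdx was above Rpia in 31 of 74, so the last 2 could not be ordered. In high-fat livers Pgls (20.2%) came before Tkt (17.4%), in 49 of 74 mice, and Taldo1 made up 41.6%. In control muscle Taldo1 made up 48.1%, Pgls 12.2%, Tkt 10.7%, Rpia 9.66%, Rpe 7.74%, Pgd 5.49% and G6pdx 3.70%. Pgls stood above Tkt in 42 and Tkt above Rpia in 41 of the 74, so these neighbours overlapped.

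Across muscles 6 of 7 members in control mice and 5 of 7 in high-fat mice rose with the adipocyte markers, in a family of 14 relations added after the data were seen. What share of all genes rose with these markers was not computed, so the counts cannot be read as particular to the members. In control muscle r with the summed markers was 0.93 for G6pdx, 0.89 for Pgd and 0.87 for Tkt (adjusted p = 1.556e-05 each, the smallest the permutations allow, 74 mice), and rho was 0.87, 0.82 and 0.85. It was 0.79 for Taldo1, 0.77 for Rpe and 0.55 for Pgls at the same adjusted p. Rpia gave r = -0.17 (adjusted p = 0.157, permutation test). In high-fat muscle r was 0.84 for G6pdx, 0.79 for Pgd, 0.67 for Tkt, 0.45 for Rpe and 0.38 for Taldo1, all past the threshold. Rpia there gave r = -0.24 (adjusted p = 0.0474, permutation test), which did not pass without the 2 farthest libraries (-0.23, adjusted p = 0.0624) or without those of low scale factor (-0.21, adjusted p = 0.102), and Pgls 0.14 (adjusted p = 0.231). Without the 2 libraries farthest from the median, G6pdx kept r = 0.92 in control and 0.81 in high-fat muscle. Whether these relations differed between the diets was not tested.

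**Figure D4:**
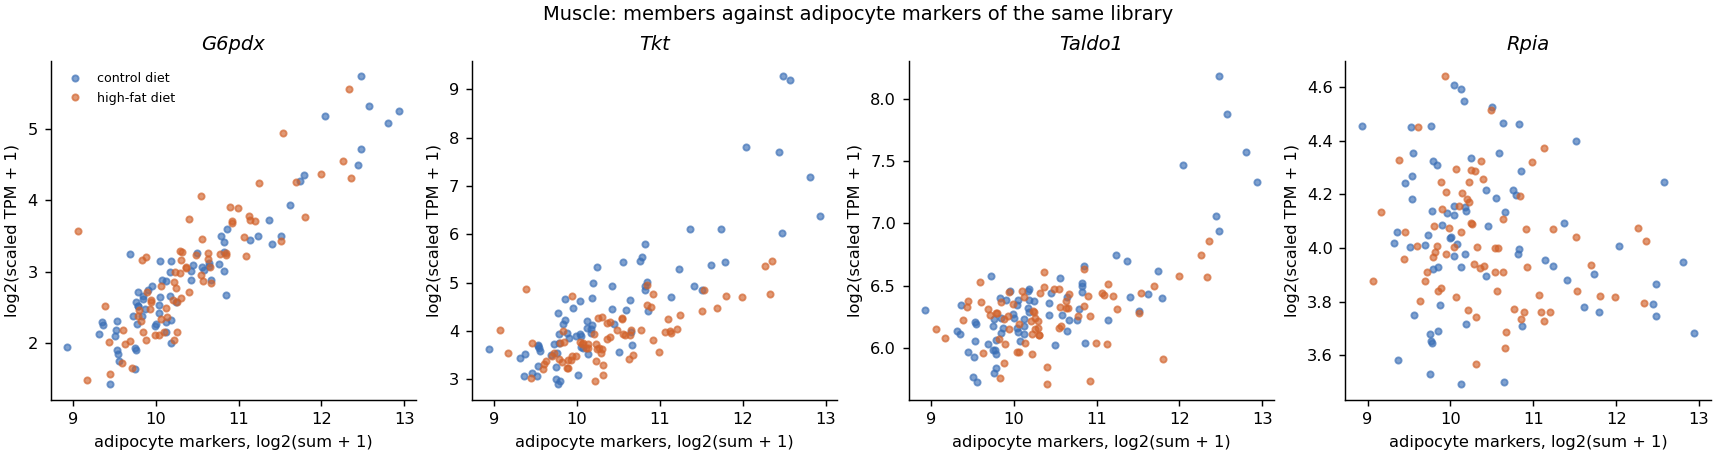
Muscle libraries: log2(scaled TPM + 1) of G6pdx, Tkt, Taldo1 and Rpia against log2 of the summed 12 adipocyte markers plus 1, blue control and orange high-fat. G6pdx follows the markers over their whole range (r = 0.93 and 0.84), the highest Tkt values are control muscles with high marker sums, and Rpia does not climb (r = -0.17 and -0.24).

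As pairs, 15 of 21 member combinations were correlated in control muscle and 6 of 21 in high-fat muscle, all positively, and none of these pairs held Rpia. No such share was computed for pairs of other muscle genes. Pgd and Tkt gave r = 0.93 in control muscle and 0.72 in high-fat muscle. The genes most like each member over 72 control and 65 high-fat muscles were Acly (r = 0.94), Acaca (0.93) and Pygl (0.91) for Tkt, and Car5b (0.91), the adipocyte factor Cebpa (0.91) and Ywhab (0.90) for G6pdx. Those for Pgd were G6pdx (0.90), Agpat2 (0.89) and Tkt (0.88), those for Taldo1 included Tkt (0.81) and Ormdl3 (0.79), and the closest to Rpe was Ormdl3 (0.78). Rpia was most like Tsc22d3 (0.45), Zbed4 (0.44) and the muscle-abundant lactate dehydrogenase gene Ldha (0.43), and Pgls like Atox1 (0.60). In the lists, Fasn (-1.21 ± 0.23), Elovl6 (-0.92 ± 0.22) and Scd2 (-0.50 ± 0.12) were lower in high-fat muscle, 3 of 13 lipid-synthesis genes. Of 10 tested redox genes Cat was higher (0.34 ± 0.07), and of 10 glucose 6-phosphate genes Fbp2 was higher (0.54 ± 0.10). None of the 11 other NADPH sources, Me1 among them (-0.16 ± 0.07, adjusted p = 0.280), of the 7 paralogs or of the 8 regulators changed.

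The spread of the members between mice was compared between diets on absolute deviations from the group median. No member was called in liver, where 5 could be tested and none had an unadjusted p under 0.05, against a background of 0.027% of genes called by limma. In muscle none of 7 was called (background 0.0348%), and 3 had an unadjusted p under 0.05, a share that was not computed over all genes. Of these Tkt stood apart in size, with a mean absolute deviation of 0.93 in control and 0.42 in high-fat muscle (difference -0.50 ± 0.12, SE, adjusted p = 0.126).

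Each member's level in the liver of a mouse was set against its level in the muscle of the same mouse number within a diet, the 7 unmatched mice included. None of 14 relations passed an adjusted p under 0.05 by permutation test, and 1 had an unadjusted p under 0.05. The highest was Rpia in control mice, with r = 0.24 (p = 0.0378, adjusted p = 0.381) over 74 mice. Without the unmatched mice (72 control and 69 high-fat mice left) none passed either, and Rpia in control mice gave r = 0.19 (adjusted p = 0.701, permutation test).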

How the data were processed

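Liver, skeletal muscle and adipose RNA of Diversity Outbred mice was made into stranded libraries and read on a MiSeq, per the labels' protocols. The deposited tables hold TPM, made by the authors. FastQC, Trim Galore 0.4.4 and Bowtie 1.2.2 are named in the submitters' processing notes; neither labels nor headers name the quantifier, build, annotation or read counts, so depth is unknown. Deposited TPM below 1e-06 was taken as 0. Gene IDs were named from GENCODE M21 (99.1% matched).

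TPM was divided by a trimmed mean of log ratios (0.3 trimmed from each end of the ratios, 0.05 of the levels) against the median library, using 21606 nuclear protein-coding genes. Genes at 1 scaled TPM or more in at least 0.7 of the smaller group were tested with limma 3.58.1 in R 4.3.3 (trend, robust) on log2(scaled TPM + 1), which understates changes of low genes. Spread tests took genes averaging 5 scaled TPM or more, so liver G6pdx and Rpia were not among them. Correlations and ratios used 100000 permutations. The scripts were tested on simulated data. Liver and muscle with the same mouse number were taken as the same animal, although 7 mice did not match, and the consensus correlation within a mouse was 0.05. The members, gene lists and tests were chosen with earlier results of these data known. Genes are named if they are members, Fasn or Me1, up to 4 per list and tissue with the smallest p past the threshold, or the 3 most correlated with a member, of which 1 is not reported here. Others named (Fads1, Tecr, Ucp1, Adipoq, Lep, Plin1, Cfd, Retn, Slc2a4, Acta1, Alb and the overlapping genes) were chosen after their values were seen. Identical stretches of at least 150 bases at 95% identity were sought with BLAST 2.17.0.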

Additional observations from a re-analysis of the deposited data

How the results depend on the processing

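The 4 liver members remained called lower under every alternative scaling, filter, weighting and left-out set of libraries except with TPM as deposited, where 0 of 7 were called, and with a pseudocount of 0.1, where 3 were. With TPM as deposited the changes of the 4 were -0.32 (G6pdx), -0.48 (Pgd), -0.34 (Rpia) and -0.44 (Tkt), and the uncalled Pgls (-0.047), Rpe (-0.0065) and Taldo1 (-0.044) turned sign. With a pseudocount of 5, G6pdx (-0.19) and Rpia (-0.15) changed less, since that constant outweighs low levels. The muscle count of 1 fell to 0 with TPM as deposited (Tkt -0.81, adjusted p = 0.0918), without a low-value filter (adjusted p = 0.0716; more genes are tested) and without adipocyte-rich muscles. Uncalled muscle values that turned sign were G6pdx with TPM as deposited (-0.11), Pgd (0.016) and Pgls (0.0036) with array weights, and Pgd (0.080) and Taldo1 (0.0074) without adipocyte-rich muscles. Members with a different diet effect in the 2 tissues rose from 0 to 1 without low-factor libraries, without unmatched mice and without adipocyte-rich muscles; in the last, Tkt turned to -0.036. On control diet, 3 members differed between tissues with TPM as deposited instead of 6, and Pgd turned to 0.29 without adipocyte-rich muscles. With TPM as deposited, 84 of 84 member pairs and 56 of 56 relations with Fasn or Me1 were called. The cause of these changes was not tested.

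With mouse as a replicate block, the interaction gave -0.43 for G6pdx (adjusted p = 0.165) and -0.26 for Rpia (adjusted p = 0.0943), 0 members were called, 6 of 7 still differed between tissues, and the block changed no call. Leaving out each mouse in turn moved the liver changes between -0.41 and -0.35 (G6pdx), -0.42 and -0.36 (Pgd), -0.32 and -0.26 (Rpia) and -0.37 and -0.34 (Tkt), and muscle Tkt between -0.64 and -0.55. Without mouse 21 muscle Tkt stayed called (adjusted p = 0.0348). The alternatives for adipose tissue were not run, since no member was among its genes. Depth is unknown, and the low levels of G6pdx and Rpia in liver limit their precision.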

Other observations

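The libraries of mouse 80 were left out of every comparison above. Each was scaled against the libraries of its labelled tissue, although its Acta1 and Alb levels were those of the other. Its scaled TPM therefore cannot be set directly beside the levels of either tissue. The library labelled liver held Rpia at 10.9, Tkt at 10.2, Pgls at 15.7 and Taldo1 at 42.6 scaled TPM. The library labelled muscle held Rpia at 6.81, Tkt at 49.7, Pgls at 39.6 and Taldo1 at 123.2. For Rpia, the member that differed most between tissues, the library labelled liver was higher than the one labelled muscle, the reverse of the order in the medians of the other mice. For Taldo1 the library labelled muscle was the higher, the same order as in those medians. How far the scaling shaped these orders was not tested.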
